A study of Mus musculus with 4 samples.

Results

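Around Ifnar1 on mouse chromosome 16, 53 genes were followed in lung RNA, 17 of which start before it and 36 after it. They were taken from a list of gene symbols of this stretch, without the interferon receptor genes, and each symbol matched 1 Ensembl gene among the 46603 genes of the unfiltered table. All 53 lie on chromosome 16 in GENCODE M21 (build GRCm38), from App, at 84949685, to Zbtb21, which ends at 97962622. Ifnar1 itself starts at 91485238, so the list reaches 6.54 Mb before it and 6.46 Mb after it. The filtered table of 12850 genes held 51 of the 53, and Dnajc28 and Setd4 were found only in the unfiltered one.

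The SA group consisted of 2 lung libraries from mice with the Ifnar1 S526A allele, and the WT group of 2 lung libraries from wild-type mice. The mice of both groups were littermates of the C57BL/6 background, 6 to 8 weeks old. All had received 100 µl of medium conditioned by B16F10 melanoma cells into a vein, 3 times a week for 3 weeks. The allele is present in the whole animal, no lung without conditioned medium was analysed here, the labels do not say whether it is on 1 or both chromosomes, and they do not say how many animals gave each library or from which strain the engineered DNA came. The design text calls the 2 samples of a group biological replicates. A p-value here sets the genotype difference against the spread between the 2 libraries of a group, moderated by the spread over all genes.

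IFNAR1 is one chain of the receptor for type I interferons, and phosphorylation of the serine replaced in SA mice is known to send the receptor for degradation. An engineered allele is inherited together with the DNA next to it. The genes beside such a locus are therefore commonly looked at for differences between genotypes that do not depend on the edited protein. This stretch of the mouse genome corresponds to a part of the human chromosome that is trisomic in Down syndrome, and it holds genes of very different work: the amyloid precursor App, the superoxide dismutase Sod1, the transcription factors Bach1, Runx1, Erg and Ets2, and the kinase Dyrk1a.

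Levels are log2 CPM, reads scaled to the size of the library. Differences are SA minus WT on the same scale, followed by their standard error (SE) from limma. The libraries held 27381916 to 38378936 gene reads, and at this depth the least covered library of any member had 64 reads (Rwdd2b in WT 1). Lung markers were present in every library: Sftpc, Ager, Scgb1a1 and Cldn5 summed to 41873 and 35062 CPM in SA 1 and SA 2, and to 37187 and 33708 CPM in WT 1 and WT 2. Per kilobase of exon, App stood highest among the members at 76.5 CPM, followed by Sod1 at 73.2 CPM and Tmem50b at 57.4 CPM. Setd4, a lysine methyltransferase gene, stood lowest at 0.60 CPM per kilobase.

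Across the 51 members of the filtered table, none passed an adjusted p of 0.05 (limma, Benjamini-Hochberg over 12850 genes), where 40 of all genes did, a background of 0.311%. An unadjusted p under 0.05 was found for 20 of 51 members, against 27.3% of all genes. In SA 11 of these 20 were higher, against 16.4% of all genes, and 9 were lower, against 10.9% of all genes. Without WT 1 the count was 12, against 14.1% of all genes. SA and WT values did not overlap in 36 of 51 members, against 60.7% of all genes. The median difference was 0.10 over the members and 0.06 over all genes. Of the 53, 35 had a positive difference and 18 a negative one, where 7759 of all 12850 genes of the filtered table had a positive one. Fewer cells of a type and less RNA per cell cannot be told apart in whole lung.

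Closest to the threshold were Rcan1, Zbtb21 and Wrb, at an adjusted p of 0.0502 (limma, Benjamini-Hochberg) that 318 of all genes reached or went below. Rcan1, which encodes an inhibitor of the phosphatase calcineurin, had 6.12 and 6.16 log2 CPM in SA 1 and SA 2, and 6.78 and 6.73 log2 CPM in WT 1 and WT 2. It differed by -0.61 ± 0.05 (95% interval from -0.75 to -0.47). Zbtb21, a zinc finger transcription factor, had 4.60 and 4.63 log2 CPM in the SA libraries and 5.17 in each WT library. That gave a difference of -0.55 ± 0.06 (95% interval from -0.72 to -0.38). In the opposite direction, Wrb, a receptor subunit that inserts tail-anchored proteins into the endoplasmic reticulum, had 4.70 and 4.68 log2 CPM in SA and 4.11 and 4.08 log2 CPM in WT. It differed by 0.60 ± 0.07 (95% interval from 0.40 to 0.80). In each of these genes the 2 libraries of a genotype lay within 0.05 of each other and the genotypes at least 0.535 apart.

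The promoters of these 3 genes and of Dnajc28, the member nearest to Ifnar1 with a wide gap between genotypes, are given from RefSeq (GRCm38.p6), 5′ to 3′, from 250 bases before the annotated start to 50 after it. Capitals mark the cyclic AMP response element TGACGTCA, a palindrome bound by CREB and ATF factors. For Rcan1 the second of its 2 listed starts is shown.
Rcan1, chr16:92400029-92400328, minus strand: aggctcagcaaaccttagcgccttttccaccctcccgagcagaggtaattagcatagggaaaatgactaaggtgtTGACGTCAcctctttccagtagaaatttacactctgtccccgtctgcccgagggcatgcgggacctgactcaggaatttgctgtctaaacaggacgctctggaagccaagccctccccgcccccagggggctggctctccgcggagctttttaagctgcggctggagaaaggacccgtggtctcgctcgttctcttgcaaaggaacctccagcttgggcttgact
Zbtb21, chr16:97962573-97962872, minus strand: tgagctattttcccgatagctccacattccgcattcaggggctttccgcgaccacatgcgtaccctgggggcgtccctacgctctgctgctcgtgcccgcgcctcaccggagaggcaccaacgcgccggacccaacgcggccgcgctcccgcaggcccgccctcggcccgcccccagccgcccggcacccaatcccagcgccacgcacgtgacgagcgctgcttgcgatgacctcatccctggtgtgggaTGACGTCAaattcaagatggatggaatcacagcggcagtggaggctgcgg
Wrb, chr16:96145150-96145449, plus strand: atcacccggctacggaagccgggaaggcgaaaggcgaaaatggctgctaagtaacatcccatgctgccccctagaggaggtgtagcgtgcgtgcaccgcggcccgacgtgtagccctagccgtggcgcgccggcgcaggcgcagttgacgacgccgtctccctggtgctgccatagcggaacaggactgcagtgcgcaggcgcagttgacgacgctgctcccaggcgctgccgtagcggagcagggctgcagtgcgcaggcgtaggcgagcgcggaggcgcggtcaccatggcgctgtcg
Dnajc28, chr16:91618950-91619249, minus strand: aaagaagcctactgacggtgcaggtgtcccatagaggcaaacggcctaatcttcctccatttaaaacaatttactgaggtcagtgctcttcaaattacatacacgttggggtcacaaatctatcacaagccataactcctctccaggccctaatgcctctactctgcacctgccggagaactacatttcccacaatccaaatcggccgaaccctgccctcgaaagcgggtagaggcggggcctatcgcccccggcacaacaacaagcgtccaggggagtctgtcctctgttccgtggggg

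Among the 47 members with a promoter in this table, 62 start windows in all, TGACGTCA was found in 2, the second start of Rcan1 and that of Zbtb21 (3.23% of the windows, against 1.79% of 32851 windows of all genes, both strands searched). In Rcan1 the element begins 175 bases before the start, and in Zbtb21 at the annotated start base itself. Both genes had lower levels in SA. The interferon-stimulated response element, searched as a pair of GAAA blocks with 2 bases between them, was found in 0 of the 62 windows, against 3.44% of all windows. TTCNNNGAA, the gamma-activated site, was found in C2cd2 and Psmg1 (3.23% against 8.3%), and GGAAAA, the core bound by NFAT, in 12 members (21% of windows against 23.4%). The NFAT core and the interferon element can overlap in their runs of A. Median GC content was 67.3% in the member promoters and 52.7% in all promoters, and its part in these shares was not tested. The motifs were chosen with the results known, and gene-level reads do not tell which start of Rcan1 was used.

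A sharp genotype split was defined as a gap between the groups at least 3 times as wide as the larger gap within a group. By that measure 7 of 51 members were split, 2 upward (Cbr1 and Wrb) and 5 downward (Hunk, Son, Rcan1, Dyrk1a and Zbtb21). The background was 9.77% of all genes, 5.79% upward and 3.98% downward, and Dnajc28 from the unfiltered table makes 8 of 53. These 8 members reach from Hunk, before Ifnar1, to Zbtb21, the last gene of the stretch, among members without such a split. Several of the splits are small: Son, a splicing cofactor, differed by -0.17 and Dyrk1a, a dual-specificity kinase, by -0.12.

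**Figure D1:**
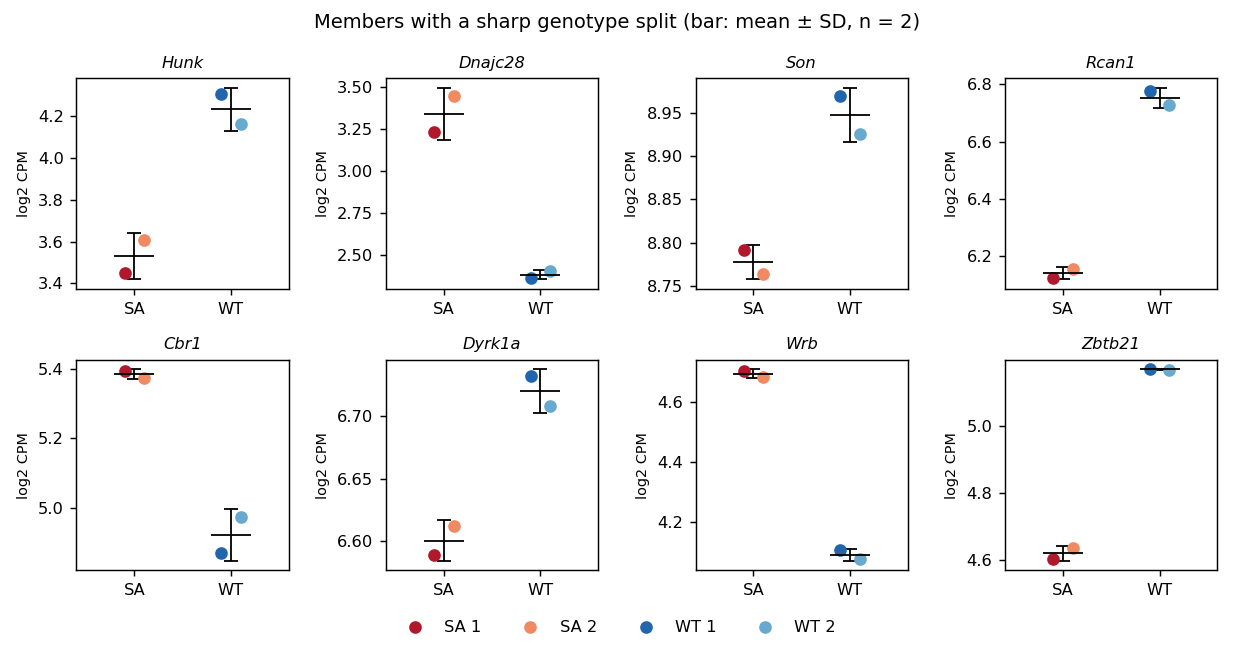
Each panel plots one of the 8 members with a sharp genotype split, as log2 CPM on an axis of its own range. Points are libraries, SA left of WT, and bars are the mean ± SD (n = 2 per group). The panels differ in scale: the genotypes are 0.96 apart for Dnajc28 and 0.12 apart for Dyrk1a.

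Dnajc28, which encodes a J-domain protein and starts 0.129 Mb after Ifnar1, rose in SA. It had 257 and 419 reads in SA 1 and SA 2, and 157 and 167 reads in WT 1 and WT 2. Its level was 3.23 and 3.45 log2 CPM in the SA libraries, and 2.36 and 2.40 log2 CPM in the WT libraries. The difference of 0.96 ± 0.14 (SE), 1.94-fold, passed in limma on the unfiltered table (adjusted p = 0.00053 over 46603 genes). That fit called 4.75% of all genes and 13.6% of the genes with a mean of at least 1 log2 CPM, and 14 of the 53 members. Among genes of the unfiltered table with a mean of at least 1 log2 CPM, the same test gave Dnajc28 an adjusted p of 0.051, and over all its alternatives the adjusted p ran from 1.6e-12 to 0.32. Setd4, the other member outside the filtered table, had 1.48 and 2.04 log2 CPM in SA and 1.55 and 1.65 log2 CPM in WT, and its groups overlapped.

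The other members next to Ifnar1 had smaller differences than Dnajc28. Over all genes of the filtered table the median absolute difference was 0.17. After Ifnar1 lie, in order, Tmem50b, Dnajc28, Gart, Son, Donson and Cryzl1. The membrane protein gene Tmem50b had 7.22 and 7.15 log2 CPM in SA and 7.12 and 7.04 in WT, a difference of 0.10 ± 0.06. Gart, which encodes a trifunctional enzyme of purine synthesis, had 5.45 and 5.51 log2 CPM in SA and 5.34 and 5.31 in WT, a difference of 0.15 ± 0.06. Between the groups, the gap was 0.03 for Tmem50b and 0.10 for Gart, beside gaps of up to 0.08 and 0.07 between libraries of 1 genotype. Donson, a replication fork protein gene, differed by 0.11 ± 0.13, and Cryzl1, a quinone oxidoreductase-like gene, by 0.16 ± 0.07.

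On the other side, Paxbp1, Synj1, Eva1c, Urb1, Mis18a and Hunk lie nearest, named outward from Ifnar1. Paxbp1, a partner of PAX transcription factors, differed by 0.10 ± 0.07. Synj1, a phosphoinositide phosphatase of vesicle recycling, was at 5.19 and 5.26 log2 CPM in SA and at 5.45 and 5.39 log2 CPM in WT, a difference of -0.19 ± 0.06. Eva1c, a membrane protein gene, differed by -0.27 ± 0.08 and Urb1, a ribosome biogenesis gene, by -0.21 ± 0.08. Mis18a, which helps to load the centromeric histone, differed by 0.11 ± 0.14. Only Hunk, a kinase gene, was far apart among these 6: it had 3.45 and 3.61 log2 CPM in SA, and 4.30 and 4.16 log2 CPM in WT (difference -0.70 ± 0.11, adjusted p = 0.060). Hunk, Eva1c and Synj1 of these 6 had an unadjusted p under 0.05 (limma), against 27.3% of all genes. Of the 12 nearest members on both sides, Donson and Mis18a changed sign with another scaling or without 1 library. They were also the only ones of the 12 whose groups overlapped, where 60.7% of all genes had groups that did not.

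The size of the differences did not rise toward Ifnar1. The Spearman correlation between the size of the difference and the distance was 0.07 over the 53 genes (Pearson 0.07), and -0.01 over the 47 left without the run of genes described further on. The points share their libraries, so no p is given. Median absolute differences were 0.18 for the 15 members of the filtered table within 1 Mb, 0.24 for the 13 between 1 and 3 Mb and 0.29 for the 23 beyond 3 Mb. Without the run, the 17 left beyond 3 Mb had a median of 0.21. The medians were thus lowest nearest to Ifnar1, where the value was close to the 0.17 of all genes. Dnajc28, outside the filtered table, is in the correlation and not in the 15. Groups that did not overlap were most frequent there: 80% of the 15, 69.2% of the 13 and 65.2% of the 23, against 60.7% of all genes. Whether these values differ by distance was not tested. The 2 nearer groups hold fewer than 20 genes each. Of 52 pairs of adjacent members, 20 had opposite signs and 32 the same sign. The longest stretch of 1 sign was 8 members, N6amt1 to Sod1, all with a positive difference, and it takes in the run. Without WT 1, N6amt1, Bach1 and Tiam1 of this stretch were negative (-0.27, -0.0772 and -0.15).

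**Figure D2:**
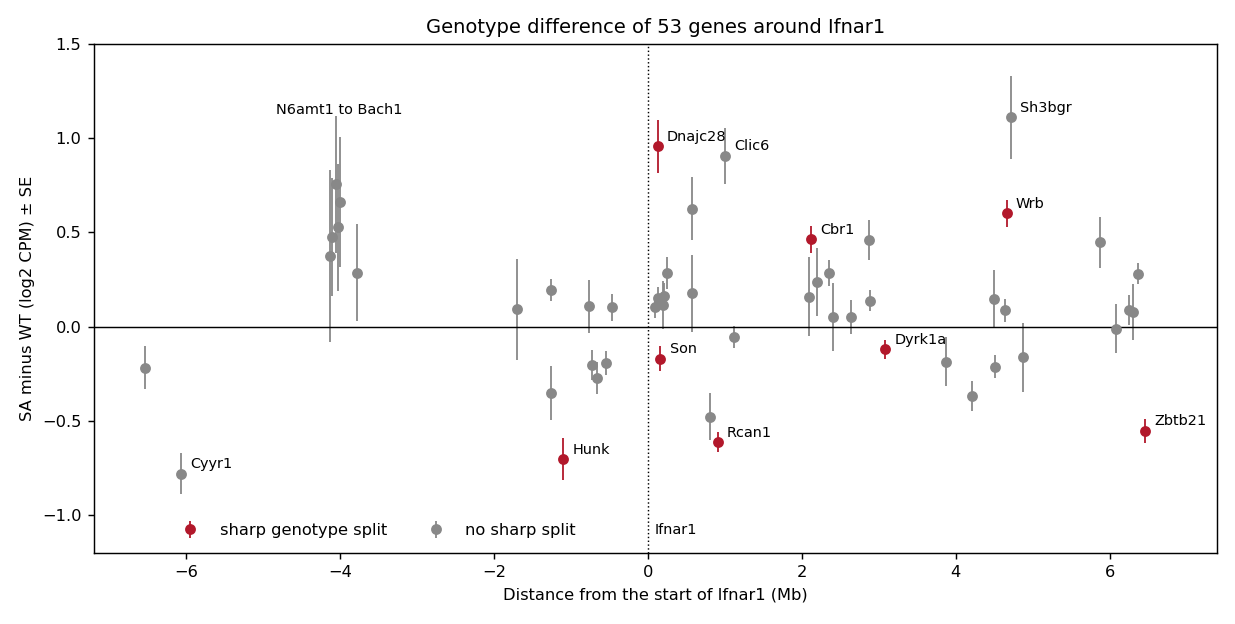
The SA minus WT difference (log2 CPM, ± SE) of each of the 53 genes is plotted against its distance from the start of Ifnar1 in Mb, with negative distances before the gene. Members with a sharp genotype split are red, and both signs occur on each side of Ifnar1, with Dnajc28 at 0.96 and Son at -0.17 close after it.

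Of the receptor genes in the gap between both flanks, Ifnar1 differed by 0.01, Ifnar2 by -0.0033 and Ifngr2 by 0.07 (SE 0.08, 0.08 and 0.06; adjusted p of 0.93, 0.98 and 0.47, limma). Il10rb had 5.99 and 5.91 log2 CPM in SA and 5.79 and 5.69 log2 CPM in WT, groups that did not overlap, and differed by 0.21 ± 0.07 (unadjusted p = 0.030, adjusted p = 0.14, limma). The filtered table held 20 genes of the interval that are not members, these 4 included, with 0 past the threshold in limma. Of these 20, 9 had an unadjusted p under 0.05 (45%) and 3 with a sharp split (15%). Of the rest of chromosome 16, 26.7% of 356 genes were at an unadjusted p under 0.05 and 10.4% were sharply split; of other chromosomes, 27.3% and 9.73% of 12400 genes. Chromosome 16 held 1 of the 40 genes past the threshold, outside this interval. Whether the shares differ by position was not tested.

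**Figure D3:**
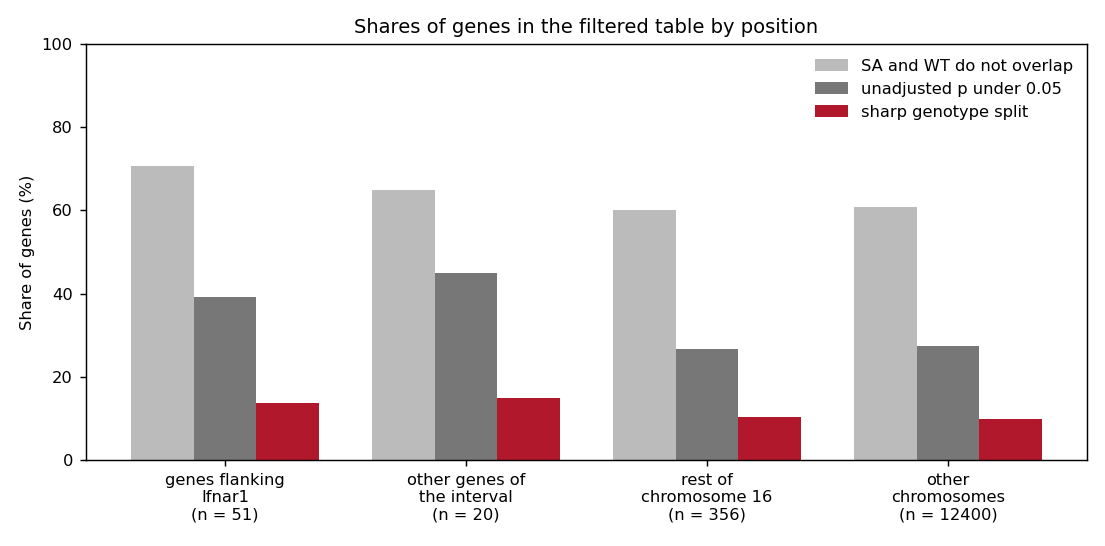
Bars give the share of genes of the filtered table (%) whose SA and WT values do not overlap, that have an unadjusted p under 0.05 (limma), or that have a sharp genotype split, by position. The genes flanking Ifnar1 stand at 70.6%, 39.2% and 13.7%, and the genes of other chromosomes at 60.7%, 27.3% and 9.73%.

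Within the interval, the interferon-induced genes Mx1 and Mx2, which lie near its far end and are not members, were higher in SA. They lie between Bace2 and Tmprss2, and Mx2 is annotated as a polymorphic pseudogene in GENCODE M21. Mx1, outside the filtered table, had 2.01 and 2.23 log2 CPM in SA and 0.69 and 0.49 log2 CPM in WT. It rose by 1.53 ± 0.21 (limma on the unfiltered table, adjusted p = 0.00029). That fit called 4.75% of all genes and 13.6% of the genes with a mean of at least 1 log2 CPM. Mx2 had 3.22 and 2.87 log2 CPM in SA and 1.01 and 0.43 log2 CPM in WT (limma on the filtered table, adjusted p = 0.0502). The members on both sides of them had smaller differences. Bace2, a protease gene, differed by 0.45 ± 0.13, with groups that did not overlap. Tmprss2, another protease gene, differed by -0.01 ± 0.13. A list of 5 interferon-response genes (Irf7, Isg15, Ifit1, Oasl2 and Usp18) summed to 231.1 and 222.0 CPM in SA, and to 71.8 and 70.9 CPM in WT. Whether the Mx1 and Mx2 differences go with that list or with position on the chromosome was not tested.

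A run of 6 adjacent members, N6amt1, Ltn1, Rwdd2b, Usp16, Cct8 and Bach1, separated WT 1 from the other 3 libraries. It was noticed after the values were seen. The run spans 379 kb, from 87354185 to 87733346, and its members start between -4.13 and -3.79 Mb from Ifnar1 (negative before it). Its genes include Ltn1, a ubiquitin ligase of stalled ribosomes, Usp16, a histone H2A deubiquitinase, Cct8, a subunit of the cytosolic chaperonin, and Bach1, a haem-sensing repressor. In each of the 6, WT 1 was the lowest library.

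Cct8 had 7.12 and 7.14 log2 CPM in SA 1 and SA 2, and 5.97 and 6.97 log2 CPM in WT 1 and WT 2. Ltn1 had 6.58 and 6.61 log2 CPM in SA, and 5.67 and 6.57 log2 CPM in WT 1 and WT 2. Usp16 had 5.77 and 5.78 log2 CPM in SA, and 4.76 and 5.73 log2 CPM in WT 1 and WT 2. In all 3, WT 2 lay beside the SA libraries and WT 1 about 1 unit below them. N6amt1, a methyltransferase gene, had 3.15 and 3.29 log2 CPM in SA, and 2.20 and 3.49 log2 CPM in WT 1 and WT 2. Rwdd2b had 140 and 186 reads in SA, and 64 and 131 reads in WT 1 and WT 2. Bach1 had 7.26 and 7.12 log2 CPM in SA, and 6.54 and 7.27 log2 CPM in WT 1 and WT 2. Their groups overlapped in N6amt1 and Bach1 only.

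Relative to the mean of the other 3 libraries, WT 1 was lower by between 0.67 and 1.16 log2 units in these genes. The median was -1.05, or 0.482 of that mean. Over the other 47 members the median was -0.05. The SA minus WT difference of the 6 had a median of 0.50, and when SA was set against WT 2 alone the median was 0.03, with a range from -0.27 to 0.27. The differences printed for these genes therefore rest on WT 1: for Cct8 the difference was 0.66 ± 0.35 with both WT libraries and 0.16 without WT 1, and for Rwdd2b 0.75 ± 0.36 and 0.265.

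The genes around the run were mixed. App and Cyyr1, before it, were higher in WT 1 than in each other library. Tiam1, after it, had 4.95 and 5.54 log2 CPM in SA, and 4.91 and 5.39 log2 CPM in WT 1 and WT 2, and Sod1 8.32 and 8.24 log2 CPM in SA, and 8.09 and 8.08 in WT. In Tiam1, WT 1 was again the lowest library, 0.38 under the mean of the others. Some genes that are no members were chosen after their values were seen, and are given as WT 1 relative to the mean of the others. Cldn17 and Cldn8 after the run were at -3.29 and -1.61. Before the run, Adamts5 was at -0.60 and Adamts1, next to it, at 0.38. Map3k7cl, a low gene inside the run that is no member, had 0.37 and 0.45 log2 CPM in SA, and -0.44 and 0.39 log2 CPM in WT 1 and WT 2.

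**Figure D4:**
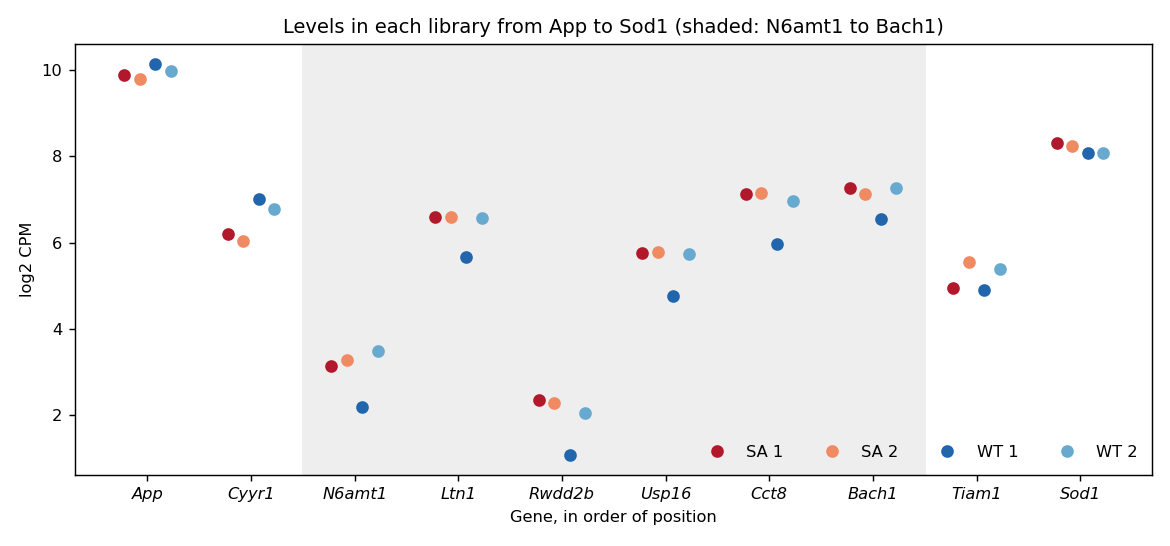
Levels (log2 CPM) in each library are plotted for the first 10 members in order of position, with the 6 genes of the run shaded and SA left of WT. WT 1 lies below the other 3 libraries in all 6 shaded genes, 0.67 to 1.16 under their mean, and not in App, Cyyr1 or Sod1.

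WT 1 stood apart in many other genes as well. Of 12022 positioned genes with a mean of at least 1 log2 CPM, 7.49% were below each other library and at least 0.6 below their mean in WT 1, against 0.532% in the same direction in WT 2, 0.732% in SA 1 and 0.682% in SA 2. Members meeting this were 9 of 51: the 6 of the run, and Clic6, Mrps6 and Sh3bgr. Stretches of at least 4 consecutive genes meeting it numbered 10 in WT 1 and 0 in each other library. SA 2 stood apart upward to a like extent, with 7.05% of genes above each other library and at least 0.6 above their mean, in 7 stretches, some of them in the same Serpinb, Sprr and Lce regions. None of these 7 lay on chromosome 16. The WT 1 stretch from N6amt1 on held 7 genes, these 6 and Cldn8. Among the other stretches were immunoglobulin segments, C1q genes, and Serpinb, Sprr and Lce genes known from squamous epithelium. No DNA was measured here.

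**Figure D5:**
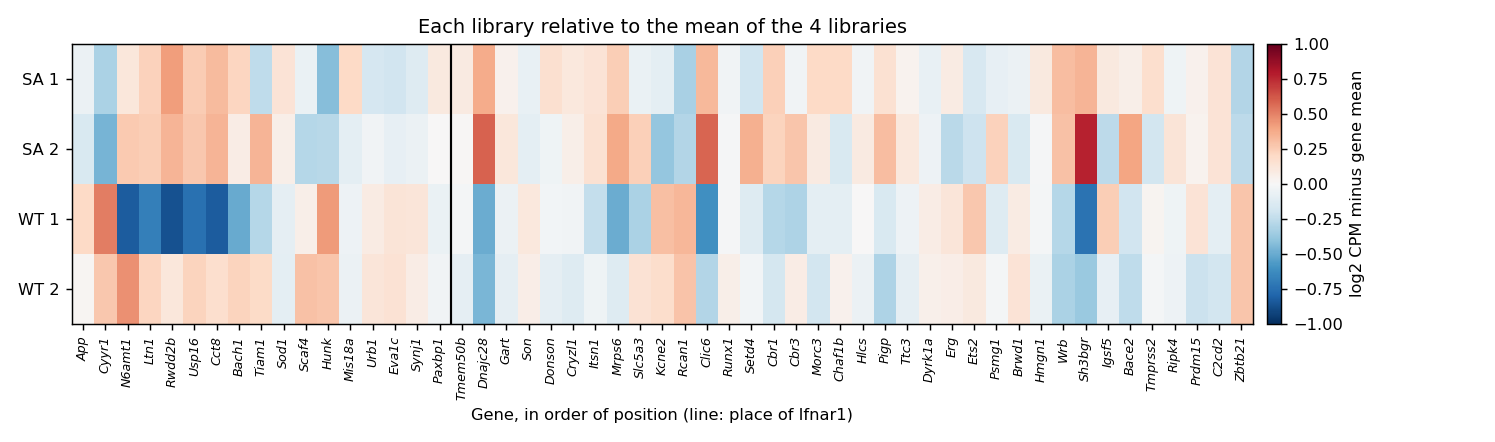
Each column is 1 of the 53 members in order of position and each row a library, SA above WT. Colour gives log2 CPM minus the mean of the 4 libraries, from -1 (blue) to 1 (red), and the vertical line marks the place of Ifnar1. The blue block in WT 1 is the run from N6amt1 to Bach1, and Sh3bgr in SA 2 is the reddest cell.

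The largest positive difference among the members was that of Sh3bgr, an SH3-binding protein gene known from heart and skeletal muscle. It had 3.48 and 3.91 log2 CPM in SA 1 and SA 2, and 2.40 and 2.76 log2 CPM in WT 1 and WT 2, a difference of 1.11 ± 0.22 (2.16-fold, adjusted p = 0.079). The groups did not overlap, and library 2 was above library 1 in both genotypes. The summed muscle markers stood in the same order over the 4 libraries. Myh6, Myl7, Tnnt2, Nppa and Actc1 of cardiac muscle summed to 993.5 and 1786 CPM in SA, and to 334.8 and 604.4 CPM in WT 1 and WT 2, with 5 of 5 higher in SA. Acta1, Mylpf, Tnnt3, Ckm and Myh2 of skeletal muscle summed to 1798 and 2473 CPM in SA, and to 791.8 and 1034 CPM in WT, with 5 of 5 higher in SA. No gene of either list had a library at 0, and their part in the Sh3bgr difference was not tested.

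Other members with large positive differences were Clic6 and Mrps6. Clic6, of the intracellular chloride channel family, had 6.16 and 6.42 log2 CPM in SA and 5.23 and 5.54 log2 CPM in WT (0.91 ± 0.15, adjusted p = 0.062). Mrps6, a small subunit protein of the mitochondrial ribosome, had 3.34 and 3.46 log2 CPM in SA and 2.59 and 2.96 log2 CPM in WT (0.63 ± 0.17, adjusted p = 0.12). Groups were apart in both, as they were upward in 37.8% of all genes, and WT 1 was the lowest library. Cbr1, a carbonyl reductase, had 5.39 and 5.37 log2 CPM in SA and 4.87 and 4.97 log2 CPM in WT (0.46 ± 0.07, adjusted p = 0.058). Its neighbour and paralog Cbr3 differed by 0.24 ± 0.18, with overlapping groups. Ciliated cell markers (Foxj1, Tekt1, Dynlrb2, Ccdc153 and Tmem212) summed to 360.9 and 364.2 CPM in SA and to 190.3 and 213.6 CPM in WT, and their part in these differences was not tested.

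Large negative differences were found in Cyyr1, Hunk, Rcan1, Zbtb21, Kcne2 and Ets2. Cyyr1, a membrane protein gene, had 6.19 and 6.04 log2 CPM in SA and 7.02 and 6.78 log2 CPM in WT (-0.78 ± 0.11, adjusted p = 0.054). Kcne2, a potassium channel subunit, had 4.70 and 4.41 log2 CPM in SA and 5.09 and 4.97 log2 CPM in WT (-0.48 ± 0.13, adjusted p = 0.11). Ets2, a transcription factor, had 7.54 and 7.50 log2 CPM in SA and 7.98 and 7.80 log2 CPM in WT (-0.37 ± 0.08, adjusted p = 0.090). SA lay below WT in all 6 with no overlap, as in 22.9% of all genes. The 6 were picked as the largest falls, which favours such a gap. The related factor Erg, known from endothelium, differed by -0.19 ± 0.13 and Runx1, a blood cell factor, by -0.05 ± 0.06.

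By the work of their proteins, the members did not move as 1 group. Of 13 chromatin and transcription genes, 8 were higher and 5 lower in SA (median 0.08). Of the 8, Chaf1b, Hmgn1 and Prdm15 turned lower with median centring. N6amt1 and Bach1, which belong to the run, turned lower without WT 1 (-0.27 and -0.0772). Examples are Morc3, a nuclear ATPase, at 0.29 ± 0.07 and Brwd1, a bromodomain protein, at -0.21 ± 0.06. Of 11 genes of RNA processing, protein synthesis and quality control, 8 were higher (median 0.15), among them 3 of the run in which WT 1 was low. Of 10 genes of metabolism and transport, 9 were higher (median 0.19), with Pigp, of glycolipid anchor synthesis, at 0.46 ± 0.11 and Sod1 at 0.19 ± 0.06, while Kcne2 was lower. Of 14 genes of membrane proteins, signalling and trafficking, 5 were higher and 9 lower (median -0.14), with Itsn1, an endocytic scaffold, at 0.29 ± 0.08 and App at -0.22 ± 0.11. With median centring Hlcs, of metabolism, and Ripk4, of signalling, also turned lower, and with quantile normalization Mis18a, Donson, Chaf1b, Prdm15, Hlcs and Psmg1 did. Over all genes the median was 0.06, and 7759 of 12850 were higher in SA. None of these members passed the threshold.

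Neighbours that share a start region did not always go the same way. Gart and Son start 554 bases apart on opposite strands, and differed by 0.15 and -0.17. Cryzl1 and Itsn1 start 306 bases apart on opposite strands, and differed by 0.16 and 0.29. C2cd2 and Zbtb21 overlap by 19242 bases on the same strand, and differed by 0.28 ± 0.06 and -0.55 ± 0.06. Pigp and Ttc3, whose first parts overlap on opposite strands, differed by 0.46 and 0.14. Overlaps also exist between Usp16 and Cct8, Sod1 and Scaf4, Son and Donson, and Mrps6 and Slc5a3, and how reads in them were assigned is not stated. Hmgn1, a nucleosome-binding protein gene at 0.09 ± 0.06, carries a second symbol in the table and can share reads with near-identical copies.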

How the data were processed

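Stranded total RNA libraries were made after ribosomal RNA removal, per the labels' protocols. The submitters' processing notes name Subread, featureCounts, limma and the GRCm38 build. Versions, the strand setting and the rule of the filter are not given there. The deposited log2 values are log2 CPM with 0.5 reads added and the library total plus 1 as divisor. Reversing it returned whole reads in 100% of genes, within 0.001 read, and 3 reads equal 0.0782 to 0.110 CPM (counting error only).

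The comparison of SA with WT used limma 3.58.1 (R 4.3.3; mean-variance trend, two-sided, Benjamini-Hochberg, 2 residual and 2.25 prior degrees of freedom) on the filtered table, and for Dnajc28 and Setd4 on the unfiltered one. With 2 against 2, permutations give no p below 0.333. Positions and exon lengths came from GENCODE M21, which held 12827 of 12850 identifiers. Repeated identifiers had equal values and were kept once. The fit was also run on simulated counts, with the same spread setting for all genes and no library-wide deviation. Those counts cannot show how the fit behaves where a whole library stands apart. Members and lists were chosen with earlier results of these data known.

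Named members are the 6 nearest to Ifnar1 on each side, the 6 largest differences each way with a mean of at least 1 log2 CPM, sharp splits and members outside the filtered table; those named otherwise (the run, role examples, overlapping pairs) were chosen after their values were seen. The 3 erythroid markers summed to 4437 and 3374 CPM in SA and to 4174 and 3919 CPM in WT. Alternatives were a replicate block, other filters, scalings, pseudocount, variance models, voom on recovered reads and leaving out each library.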

Additional observations from a re-analysis of the deposited data

How the results depend on the processing

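The number of genes past the threshold, 40 in all and 0 of 51 members by limma, depended on the processing, and the causes were not tested. With genes of a mean of at least 1 log2 CPM it was 415 genes and 4 members, with median centring 476 and 4, with a robust trend 611 and 6, by voom on library totals 268 and 3, by voom after median-of-ratios scaling 410 and 5, and without the filter 2213 and 14 of 53. It was 0 genes with quantile normalization and 1 gene without a trend, with 0 members in both, and 3157 and 3295 genes at an unadjusted p under 0.05. Leaving out 1 library gave 0 to 6 genes and 0 members. Higher and lower calls were 21 and 19, against 169 and 307 with median centring and 165 and 245 with median-of-ratios scaling.

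The labels' replicate numbers are not said to mark pairs, and the deviations of SA 1 and WT 1 from their group means correlated over genes at 0.436. With the replicate number as a block, 3179 genes and 16 members passed.

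Of 51 members, 33 were higher in SA, against 28 with median centring and 27 with quantile normalization, and the members' median of 0.10 was 0.015 and 0.0245 there; at an unadjusted p under 0.05, 11 members were higher and 9 lower, against 8 and 13 with median centring, where 9.47% of all genes were higher and 16.3% lower. The 20 members at an unadjusted p under 0.05 ranged from 12 (without WT 1) to 19 without 1 library, where 14.1% to 21.7% of all genes were. The 7 sharp splits ranged from 15 to 21 there, against 24.8% to 29.3% of all genes, since 1 library has no spread of its own. Of neighbours in the interval, 9 of 20 were at an unadjusted p under 0.05 with the filter (45%) and 17 of 133 without it (12.8%, against 14.3% of all genes). Without the 6 genes of the run, an alternative chosen after seeing the data, 20 of 45 members were at an unadjusted p under 0.05. SA and WT did not overlap in 32, 7 were sharply split, and the median was 0.09. Over all genes the shares were 27.3%, 60.7% and 9.77%. No gene of the run met the first or the last measure, so the 20 and the 7 could not change.

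Dnajc28 (0.96) did not pass among genes of a mean of at least 1 log2 CPM (0.96), without a trend (0.96) or with quantile normalization (0.73). Nor did it pass with voom and library totals (0.97) or median-of-ratios scaling (0.92). With the replicate number as a block it passed, as 11.6% of all genes of the unfiltered table did. It also passed with median centring (6.78% of all genes), another pseudocount (5.44%) and a robust trend (6.71%). Leaving out 1 library gave differences from 0.85 (without SA 2) to 1.07 (without SA 1). With quantile normalization Donson was at -0.12, Mis18a at -0.0995 and Setd4 at -0.10; without 1 library, Mis18a ranged from -0.0395 (without SA 1) to 0.26 (without SA 2) and Setd4 from -0.12 (without SA 2) to 0.44 (without SA 1). Of all 53 members, 15 changed sign in at least 1 alternative, among them, without WT 1, N6amt1 (-0.27), Bach1 (-0.0772), Tiam1 (-0.15), Slc5a3 (-0.0526) and Tmprss2 (0.0144), and without SA 2 Tiam1 (-0.21) and Tmprss2 (0.17). The smallest count of a member was 64 reads, and the number of libraries, 2 per group, limits the precision.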
